A study of Mus musculus with 12 samples.

Results

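The genes described here are 10 genes of MHC class I antigen presentation: B2m, H2-K1, H2-D1, Tap1, Tap2, Tapbp, Psmb8, Psmb9, Psmb10 and Nlrc5. They were chosen by name, with earlier results of these data known. All 10 were found, among 36823 named rows of the spermatocyte tables and 24711 named rows of the GC2 tables. RNA sequencing was done on 12 mouse libraries in 4 groups of 3. The groups were spermatocytes of Phb conditional knockout mice (Phb cKO), spermatocytes of control mice, GC2 cells with PHB knockdown (Phb KD), and control GC2 cells. GC2 is an immortalised mouse spermatocyte line. Phb encodes prohibitin, a scaffold protein of the inner mitochondrial membrane. The sources used here do not give the strain and age of the mice, the Cre driver, or how the knockdown was made. The replicates are described as biological, without naming cultures or animals, so the p-values rest on the scatter of these libraries, part of which may be technical.

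Class I molecules show short peptides from inside a cell to CD8+ T cells. The immunoproteasome subunits Psmb8, Psmb9 and Psmb10 replace the standard subunits Psmb5, Psmb6 and Psmb7 and cut proteins into peptides, the Tap1-Tap2 pump moves the peptides into the endoplasmic reticulum, and tapasin (Tapbp) holds the pump beside the empty class I molecule. There a heavy chain such as H2-K1 or H2-D1 folds with the light chain beta-2-microglobulin (B2m). Nlrc5 is a transactivator of class I genes, and most of these genes respond to interferons. Male germ cells are known for low surface class I.

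Values are FPKM, fragments scaled to transcript length and library total, as deposited. Totals per library were 290427 to 297362 FPKM in cKO and 289707 to 292931 FPKM in control spermatocytes, and 194949 to 201776 FPKM in KD and 203973 to 206711 FPKM in control GC2 cells. The sources used here give no sequencing depth, so values near 0 carry an unknown counting error. The spermatocyte and GC2 tables have different rows, so levels were compared within each. The Phb level was 11.81, 11.33 and 11.53 FPKM in cKO spermatocytes, against 12.60, 13.35 and 13.86 FPKM in control spermatocytes (log2 fold change -0.18, adjusted p = 0.0074), so the libraries labelled knockout held most of the control RNA level. That value covers the whole row and all cells in a library, so it does not measure how far Phb was lost in spermatocytes. Phb was at 22.66, 18.37 and 19.02 FPKM in KD cells, against 56.62, 53.99 and 52.36 FPKM in control GC2 cells (log2 fold change -1.40, adjusted p = 0.00062).

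The labelled cell types were checked against marker genes. All 10 spermatocyte markers were present in spermatocytes, and all 10 fell in the cKO, with summed levels of 220.74 to 223.25 FPKM in cKO and 2507.91 to 2556.73 FPKM in control spermatocytes. Of these, Spag6, Pgk2, Ccna1, Adam3 and Tdrd6 reached 1 FPKM in control libraries alone, and without any 1 control library the other 5 were tested and all 5 fell. In GC2 cells 6 of the 10 had a row, 5 of these stayed under 1 FPKM in every library, and Hspa2 was listed at 0, 4.64 and 4.68 FPKM in KD cells and at 0 in the control GC2 libraries, so the markers that define meiotic spermatocytes were close to absent from the line. Of 12 Sertoli markers 11 rose in cKO spermatocytes, with sums of 3353.76 to 3542.60 FPKM in cKO and 779.53 to 887.30 FPKM in control. Of 6 Leydig markers 5 rose, with sums of 110.35 to 113.46 FPKM in cKO and 16.67 to 17.37 FPKM in control. Without any 1 cKO library 4 Leydig markers were tested and all 4 rose. A marker that reached 1 FPKM in cKO libraries alone could not pass the filter there. Beside these marker counts, 40.9% of all rows tested in spermatocytes rose and 38.5% fell. Somatic cells of the testis carry class I, and the shifts of the marker sums stand beside every spermatocyte result given here. Genes of the mitochondrial genome took 17.1% to 19.5% of all FPKM in cKO and 12.2% to 13.6% in control spermatocytes. The part of the marker shifts in those results was not tested, and without the mitochondrial rows the same 5 class I genes rose. In addition, in bulk RNA fewer cells of a type and less RNA per cell cannot be told apart.

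The called class I genes were higher in Phb cKO spermatocytes (5 of the 10) and lower in Phb KD GC2 cells (7 of the 10), but were not all the same genes. B2m, H2-D1, Psmb10 and Tap2 were called in both, with limits for Psmb10 and Tap2 given below. In spermatocytes 6 of the 10 passed the filter of 1 FPKM in at least 3 of 6 libraries, 5 of them rose (B2m, H2-K1, H2-D1, Tap2 and Psmb10) and none fell, at an adjusted p under 0.05 by limma. Groups did not overlap for these 5, with the cKO higher, as for 42.2% of rows tested, and B2m and H2-D1 rose at least 2-fold, as did 11.6% of rows. Of all 15957 rows tested there, 79.4% were called, 40.9% as higher and 38.5% as lower, so a call alone says little in that comparison. Without control replicate 1, 2 or 3, when 13531 to 13543 rows passed the filter, 3618, 3595 or 3607 rows were lower, against 6139 with all libraries, and 63.4% of calls were higher, against 51.6%. The filter still asked for 3 libraries, so rows that reached 1 FPKM in control libraries alone could not pass there. In GC2 cells 8 of the 10 passed the filter, 7 fell (B2m, H2-D1, Tap1, Tap2, Tapbp, Psmb8 and Psmb10), H2-K1 was not called, and none rose. Of 10791 rows tested in GC2 cells 24.5% were called, 13.9% as lower and 10.7% as higher. All 8 were lower in every KD library than in any control library, as were 25.3% of rows, and 6 fell at least 2-fold, all but H2-K1 and Tapbp, as did 2.21% of rows. The median log2 fold change of the tested genes was 0.59 in spermatocytes, beside 0.0473 over all rows tested, and -1.41 in GC2 cells, beside -0.0384 over all rows. Genes in the filter were in part kept by the group in which they are high, so these counts and medians describe the 10 genes and are no test of them.

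**Figure D1:**
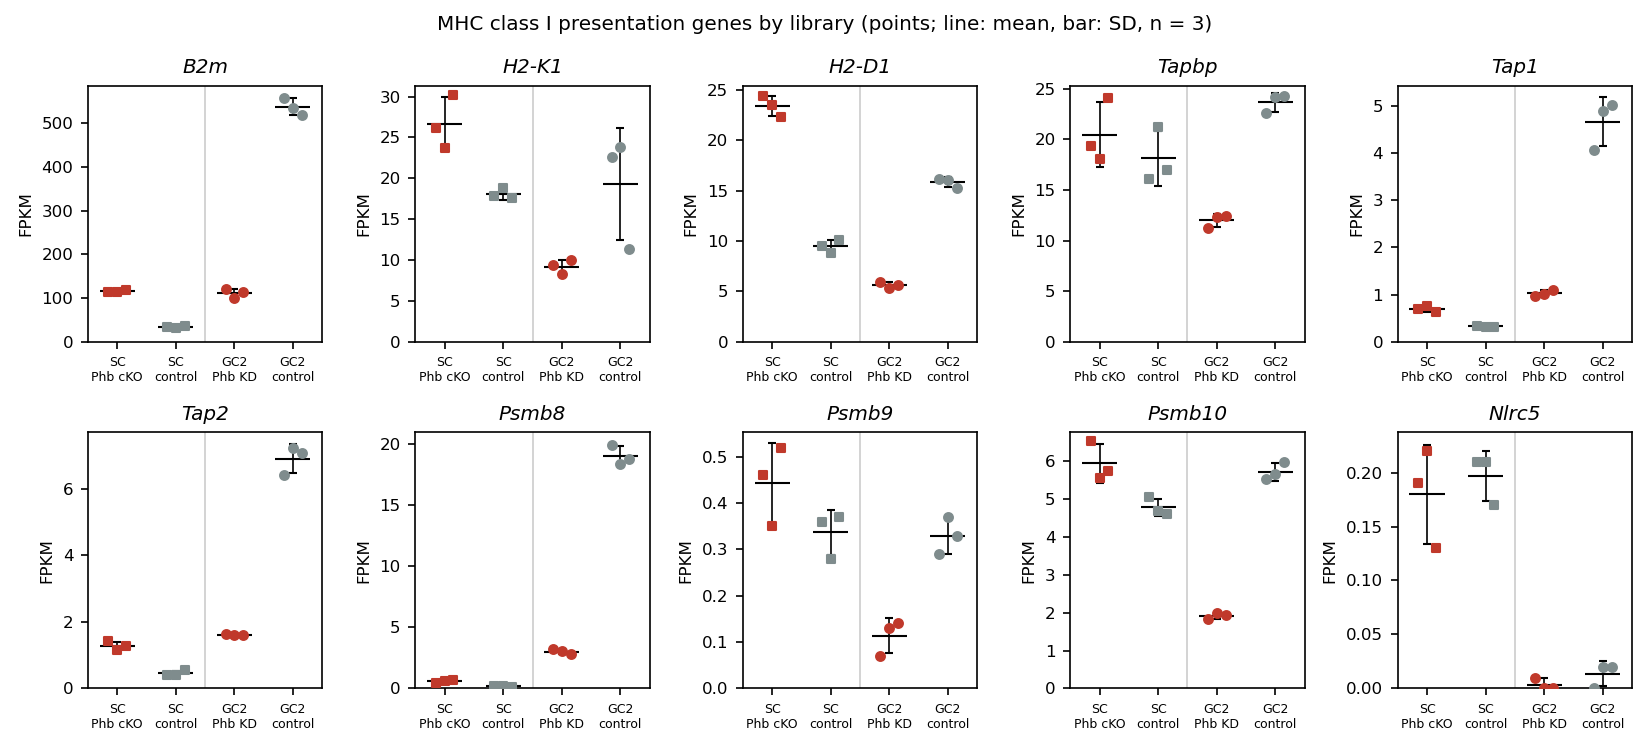
FPKM of the 10 class I genes in each of the 12 libraries (vertical axes in FPKM, starting at 0; points are libraries, lines are group means, bars are SD, n = 3; red, Phb cKO or KD; grey, control). B2m lay between 112.87 and 118.48 FPKM in cKO spermatocytes, above 32.52 to 35.59 FPKM in control, and between 100.85 and 120.29 FPKM in KD cells, below 519.90 to 558.91 FPKM in control GC2 cells.

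B2m, the light chain shared by all class I molecules, had the highest level of the 10 genes in every library. Its level was 112.87, 114.26 and 118.48 FPKM in cKO spermatocytes, against 34.24, 32.52 and 35.59 FPKM in control spermatocytes. The cKO libraries were all above the control libraries, with means of 115 ± 2.92 and 34.1 ± 1.54 FPKM (SD, n = 3 each), a 3.38-fold difference (log2 fold change 1.73, SE 0.040, limma adjusted p = 1.7e-07). In GC2 cells the level was 120.29, 100.85 and 113.19 FPKM in KD cells, against 558.91, 534.99 and 519.90 FPKM in control cells. The KD libraries were all below the control libraries, and the KD mean was 4.83-fold lower (log2 fold change -2.26, SE 0.075, adjusted p = 9.0e-05). B2m lies on chromosome 2 (ENSMUSG00000060802.8, chr2:122147686-122153083, plus strand, GRCm38), away from the MHC.

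Promoter windows, from 250 bases before to 50 after the start site, were available from RefSeq (GRCm38.p6) for 8 of the 10 genes, all but Tap2 and Nlrc5. Shown are the windows of the light chain and the classical heavy chains, and that of Tap1, which it shares in large part with Psmb9. Capitals mark the bases from the start site of that window on. H2-K1 had a further window with another start site, chr17:34000298-34000597, which is not shown.
B2m, chr2:122147437-122147736, plus strand: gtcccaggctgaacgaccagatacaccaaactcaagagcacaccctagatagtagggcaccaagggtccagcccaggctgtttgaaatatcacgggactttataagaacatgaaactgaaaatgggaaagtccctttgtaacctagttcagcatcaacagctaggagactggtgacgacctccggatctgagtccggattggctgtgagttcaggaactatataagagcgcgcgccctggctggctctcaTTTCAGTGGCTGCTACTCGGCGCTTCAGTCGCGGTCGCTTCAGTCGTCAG
H2-K1, chr17:34000284-34000583, minus strand: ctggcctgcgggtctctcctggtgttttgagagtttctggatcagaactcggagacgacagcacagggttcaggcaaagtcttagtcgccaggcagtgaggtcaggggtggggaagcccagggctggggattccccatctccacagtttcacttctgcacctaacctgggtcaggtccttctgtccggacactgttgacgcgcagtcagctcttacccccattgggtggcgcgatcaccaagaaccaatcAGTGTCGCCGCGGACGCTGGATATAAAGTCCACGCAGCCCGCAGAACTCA
H2-D1, chr17:35262844-35263143, plus strand: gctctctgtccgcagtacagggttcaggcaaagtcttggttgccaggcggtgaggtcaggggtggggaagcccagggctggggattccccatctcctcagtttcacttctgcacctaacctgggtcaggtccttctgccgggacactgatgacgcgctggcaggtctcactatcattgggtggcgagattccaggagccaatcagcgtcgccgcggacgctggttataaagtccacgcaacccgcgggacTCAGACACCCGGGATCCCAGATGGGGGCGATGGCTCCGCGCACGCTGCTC
Tap1, chr17:34187306-34187605, plus strand: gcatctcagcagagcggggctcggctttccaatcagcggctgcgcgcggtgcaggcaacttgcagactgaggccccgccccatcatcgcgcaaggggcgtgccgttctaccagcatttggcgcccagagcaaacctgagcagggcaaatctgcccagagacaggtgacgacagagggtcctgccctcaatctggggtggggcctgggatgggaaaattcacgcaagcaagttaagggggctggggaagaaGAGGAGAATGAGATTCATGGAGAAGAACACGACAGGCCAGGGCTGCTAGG

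The H2-K1 and H2-D1 windows resemble each other. Aligned without gaps where most bases match, 180 of 254 bases were identical (70.9%), and the longest run found in both was 47 bases. The offset of H2-D1 to H2-K1 was -46 bases, so the marked start sites do not line up. The first capitals of H2-K1 align with lower-case bases of H2-D1. Binding of factors to these windows was not measured.

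H2-K1 and H2-D1 encode the classical heavy chains, and in spermatocytes both were higher in the cKO. The H2-D1 level was 24.37, 23.49 and 22.34 FPKM in cKO spermatocytes, against 9.49, 8.83 and 10.06 FPKM in control spermatocytes (log2 fold change 1.22, SE 0.056, adjusted p = 3.3e-06). The H2-K1 level was 26.13, 23.70 and 30.19 FPKM in cKO spermatocytes, against 17.81, 18.81 and 17.56 FPKM in control spermatocytes (log2 fold change 0.53, SE 0.087, adjusted p = 0.0016). No cKO library overlapped with a control library for either gene, and H2-K1 showed the smaller fold change.

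In GC2 cells H2-D1 fell and H2-K1 was not called. The H2-D1 level was 5.89, 5.36 and 5.67 FPKM in KD cells, against 16.17, 16.05 and 15.25 FPKM in control cells (log2 fold change -1.34, SE 0.055, adjusted p = 0.00014). The H2-K1 level was 9.34, 8.27 and 9.98 FPKM in KD cells, against 22.57, 23.88 and 11.39 FPKM in control cells. All KD libraries were below all control libraries, but control replicate 3 lay close to the KD range, and the log2 fold change of -0.93 (SE 0.289) had an adjusted p of 0.074. Without that control library the log2 fold change of H2-K1 was -1.25 and its adjusted p 0.0056, so that 1 library decides the call. The H2-K1 row of GC2 cells held 11 transcripts, of which 4 were assembled from the reads and are not annotated ones.

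Both heavy chain genes lie in the MHC on chromosome 17, H2-K1 (ENSMUSG00000061232.16) at chr17:33996017-34000347 on the minus strand and H2-D1 (ENSMUSG00000073411.11) at chr17:35262730-35267499 on the plus strand. Their transcripts resemble each other and other class I genes. Of all 50-base windows 8.79% of H2-K1 and 14.3% of H2-D1 occurred in the transcripts of another gene, so a part of their reads could be assigned to a relative, and the sources used here do not say how such reads were counted.

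The balance of light chain to heavy chain RNA also differed between groups within both kinds of sample. The ratio of B2m to H2-D1 was 4.63, 4.86 and 5.30 in cKO spermatocytes, against 3.61, 3.68 and 3.54 in control spermatocytes. It was 20.4, 18.8 and 20.0 in KD cells, against 34.6, 33.3 and 34.1 in control GC2 cells. Neither pair of groups overlapped: relative to H2-D1, B2m was higher in cKO and lower in KD libraries. The ratio of B2m to H2-K1 showed the same order, at 3.92 to 4.82 in cKO against 1.73 to 2.03 in control spermatocytes, and at 11.3 to 12.9 in KD against 22.4 to 45.6 in control GC2 cells, where the highest value again came from control replicate 3.

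Tap1 and Tap2 encode the subunits of the peptide pump, and Tap1 shares a bidirectional promoter region with Psmb9. In spermatocytes both were low. The Tap2 level was 1.41, 1.16 and 1.26 FPKM in cKO spermatocytes, against 0.41, 0.41 and 0.54 FPKM in control spermatocytes. The groups did not overlap (log2 fold change 0.65, SE 0.067, adjusted p = 0.00017), but the row passed the filter through the cKO libraries alone, so it had to differ. Its log2 fold change was 1.32 with a pseudocount of 0.1 and 1.11 with quantile normalization. The Tap1 level was 0.70, 0.76 and 0.64 FPKM in cKO spermatocytes, against 0.34, 0.32 and 0.32 FPKM in control spermatocytes, under the filter and not tested.

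In GC2 cells both subunits of the pump fell. The Tap1 level was 0.96, 1.01 and 1.10 FPKM in KD cells, against 4.06, 4.89 and 5.01 FPKM in control cells (log2 fold change -1.48, SE 0.087, adjusted p = 0.00050). The Tap2 level was 1.63, 1.60 and 1.60 FPKM in KD cells, against 6.41, 7.23 and 7.08 FPKM in control cells (log2 fold change -1.60, SE 0.061, adjusted p = 0.00013). All KD libraries lay below all control libraries for both genes. Tap1 (ENSMUSG00000037321.17, chr17:34187553-34197225, plus strand) and Tap2 (ENSMUSG00000024339.12, chr17:34203527-34216321, plus strand) stand in 1 cluster with Psmb8 (ENSMUSG00000024338.15, chr17:34197721-34201454, plus strand) and Psmb9 (ENSMUSG00000096727.3, chr17:34181987-34187764, minus strand). The start sites of Tap1 and Psmb9 were 226 bases apart on opposite strands and their windows shared 275 bases. Within this cluster the levels of control GC2 cells differed widely, from under 1 FPKM for Psmb9 to 19.0 ± 0.803 FPKM for Psmb8 (SD, n = 3).

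Tapbp encodes tapasin, and its value cannot be given to it alone, because its row was shared with neighbours. The row of Daxx, Zbtb22 and Tapbp stood at 19.29, 18.01 and 24.08 FPKM in cKO spermatocytes, against 16.10, 21.21 and 16.98 FPKM in control spermatocytes. The groups overlapped (log2 fold change 0.17, SE 0.140, adjusted p = 0.309). The row of Tapbp, Zbtb22 and Rgl2 stood at 11.24, 12.36 and 12.38 FPKM in KD cells, against 22.56, 24.15 and 24.22 FPKM in control GC2 cells. There it fell without overlap (log2 fold change -0.92, SE 0.060, adjusted p = 0.00065). Tapbp (ENSMUSG00000024308.15) lies at chr17:33915899-33929292 on the plus strand.

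Of the catalytic immunoproteasome subunits, Psmb8 showed the largest fall of the 10 genes in GC2 cells. Its level was 3.18, 3.02 and 2.81 FPKM in KD cells, against 19.93, 18.38 and 18.79 FPKM in control GC2 cells. The KD mean was 6.34-fold lower, without overlap (log2 fold change -2.32, SE 0.061, adjusted p = 4.0e-05). In spermatocytes the Psmb8 level was 0.47, 0.57 and 0.66 FPKM in the cKO, against 0.21, 0.20 and 0.13 FPKM in control, under the filter in both groups and not tested.

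Psmb10 (ENSMUSG00000031897.9, chr8:105935735-105938444, minus strand) changed in both kinds of sample, in opposite directions. Its level was 6.53, 5.57 and 5.74 FPKM in cKO spermatocytes, against 5.05, 4.70 and 4.62 FPKM in control spermatocytes. The lowest cKO library was just above the highest control library (log2 fold change 0.26, SE 0.066, adjusted p = 0.011), the smallest called change of the 10 genes. The row it shares with Ctrl, a neighbouring protease gene, stood at 1.83, 1.99 and 1.93 FPKM in KD cells, against 5.53, 5.66 and 5.99 FPKM in control GC2 cells (log2 fold change -1.21, SE 0.056, adjusted p = 0.00024).

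Psmb9 and Nlrc5 stayed under 1 FPKM in all 12 libraries and were not tested. The Psmb9 level was 0.46, 0.35 and 0.52 FPKM in cKO spermatocytes, against 0.36, 0.28 and 0.37 FPKM in control spermatocytes, and these overlapped. It was 0.07, 0.13 and 0.14 FPKM in KD cells, against 0.29, 0.37 and 0.33 FPKM in control GC2 cells, without overlap. Nlrc5 (ENSMUSG00000074151.13, chr8:94434356-94527272, plus strand) stood at 0.19, 0.22 and 0.13 FPKM in cKO spermatocytes, against 0.21, 0.21 and 0.17 FPKM in control spermatocytes, and these overlapped. In GC2 cells Nlrc5 was listed at 0.01, 0 and 0 FPKM in KD cells, against 0, 0.02 and 0.02 FPKM in control cells, from a row that held 1 of 9 annotated transcripts. The class I transactivator was therefore low in every group. In a fit with no filter Nlrc5 was called in neither kind of sample (limma adjusted p = 0.71 in spermatocytes and 0.53 in GC2 cells). With depth unknown, a change at these levels could be missed.

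Set against the standard subunit it replaces, each immunoproteasome subunit was lower in every KD library than in any control GC2 library. The ratio of Psmb8 to Psmb5 was 0.379, 0.218 and 0.249 in KD cells, against 2.29, 1.20 and 1.35 in control GC2 cells. The GC2 row of Psmb5 held 1 transcript and varied within groups. It was at 8.38, 13.85 and 11.30 FPKM in KD cells, against 8.72, 15.35 and 13.91 FPKM in control cells. The ratios over 1 in control cells rest on that row, and Psmb6 stood at 75.81 to 88.07 FPKM in the same cells. The ratio of Psmb10, whose GC2 row also holds Ctrl, to Psmb7 was 0.037, 0.0484 and 0.0442 in KD cells, against 0.0948, 0.104 and 0.110 in control GC2 cells. The ratio of Psmb9 to Psmb6 was 0.00125 to 0.00217 in KD cells, against 0.00383 to 0.00420 in control GC2 cells. In spermatocytes the ratio of Psmb8 to Psmb5, whose row there also holds Mir686, was 0.00547 to 0.00799 in the cKO, against 0.00147 to 0.00233 in control. The ratio of Psmb9 to Psmb6 was 0.00472 to 0.00672 in the cKO, against 0.00341 to 0.00435 in control, without overlap, and that of Psmb10 to Psmb7 was 0.1 to 0.131, against 0.0885 to 0.104, with overlap. Psmb9 in all 12 libraries and Psmb8 in spermatocytes were under 1 FPKM, so their ratios there carry an unknown counting error. The standard subunits thus exceeded the immunoproteasome subunits in all spermatocyte libraries.

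**Figure D2:**
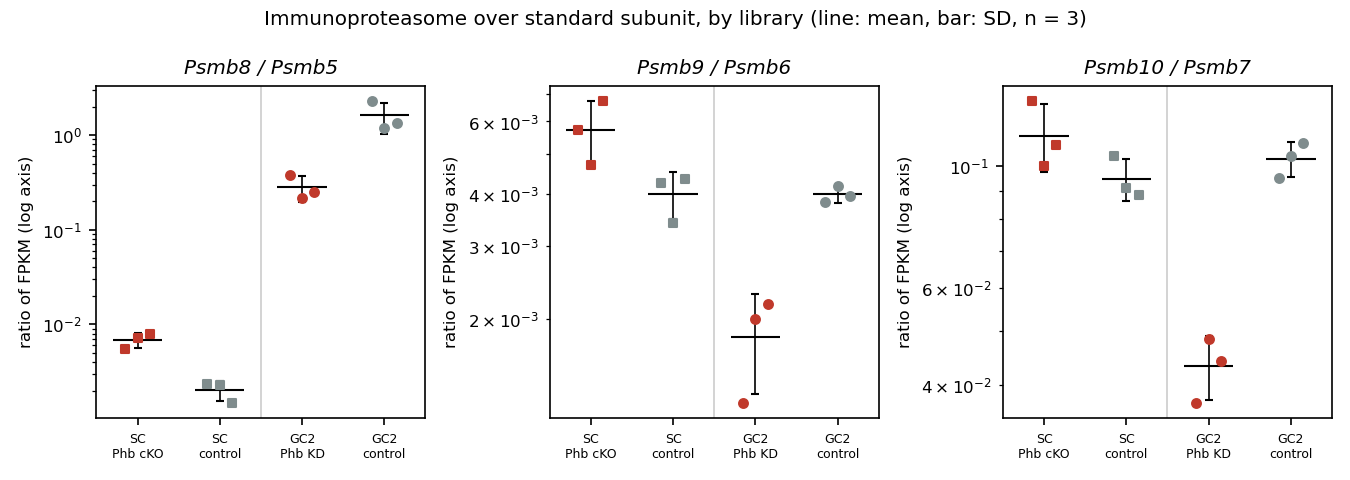
Ratio of each immunoproteasome subunit to the standard subunit it replaces (ratio of FPKM, log axis) in each library (points; lines are group means, bars SD, n = 3; red, Phb cKO or KD; grey, control). Psmb8 over Psmb5 was 0.218 to 0.379 in KD cells and 1.20 to 2.29 in control GC2 cells, and 0.00547 to 0.00799 in cKO and 0.00147 to 0.00233 in control spermatocytes. Psmb9 in all libraries and Psmb8 in spermatocytes were under 1 FPKM, and the Psmb5 row of GC2 cells held 1 transcript.

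The change in spermatocytes was set against the change in GC2 cells in 1 fit of the 9666 genes tested in both, of which 60.9% differed, 38.0% with the spermatocyte change the more positive. All 6 class I genes tested in both differed, with the spermatocyte change the more positive. The difference in log2 fold change was 3.99 for B2m (1.73 in spermatocytes and -2.26 in GC2 cells, SE of the difference 0.089, adjusted p = 7.7e-10). It was 2.56 for H2-D1 (adjusted p = 4.9e-09) and 2.25 for Tap2 (adjusted p = 2.3e-08), whose spermatocyte row passed the filter through the cKO libraries alone and gives no support to the count. It was 1.47 for Psmb10 (adjusted p = 2.8e-07), 1.46 for H2-K1 (adjusted p = 0.0028) and 1.09 for the Tapbp rows (adjusted p = 0.00027), the Psmb10 and Tapbp rows holding different genes in each table. B2m, H2-D1 and Psmb10 were called both higher in the cKO and lower in the KD, as were 7.28% of the 9666 genes. Tap2 was also called so, with the same limit. The contrasts used different animals or cells and different ways of depleting Phb, which cannot be told apart.

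**Figure D3:**
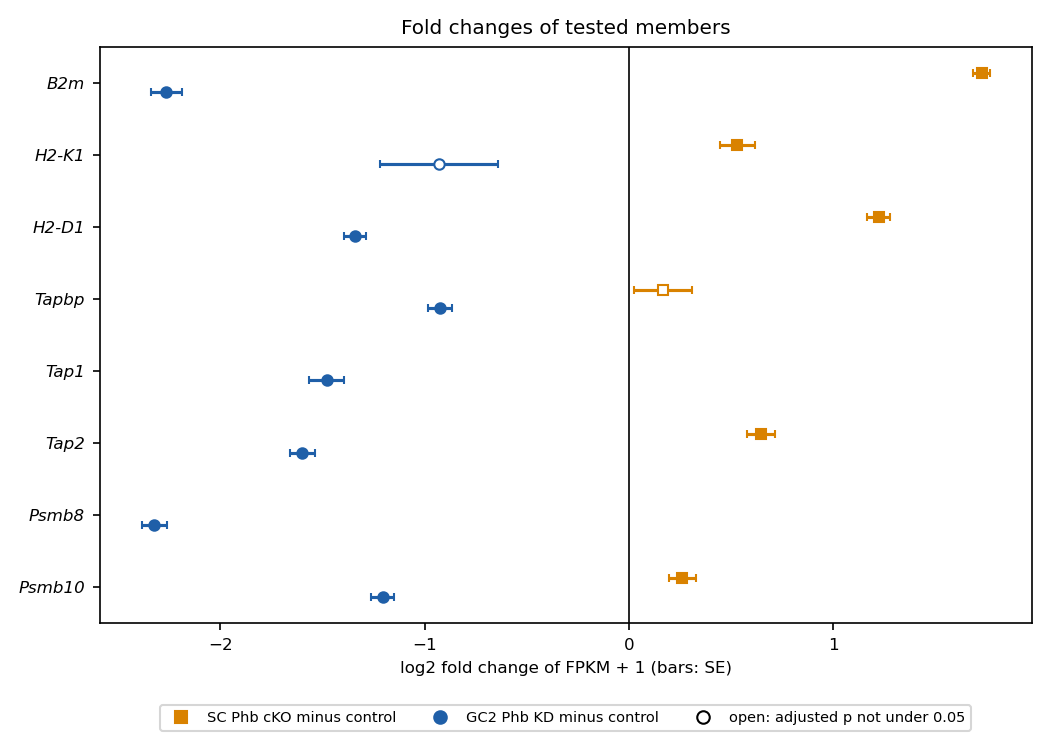
log2 fold change of FPKM + 1 for the class I genes that passed the filter (horizontal axis; bars are SE; squares, Phb cKO minus control spermatocytes; circles, Phb KD minus control GC2 cells; open symbols, adjusted p not under 0.05). Every square lies right of 0, from 0.17 for Tapbp to 1.73 for B2m, and every circle left of it, from -0.92 for Tapbp to -2.32 for Psmb8.

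The other genes of the class I family were counted from a list of 24, of which 20 had a row in spermatocytes and 11 were tested: 10 rose and none fell in the cKO. Over all rows tested there, 40.9% rose and 38.5% fell. H2-Q7 and H2-T23, among the 10, were tested through the cKO libraries alone. The largest rise was in H2-Q10, known in mice as a secreted class I molecule of the liver, at 15.19, 15.49 and 13.98 FPKM in cKO spermatocytes, against 2.75, 3.19 and 2.93 FPKM in control spermatocytes (log2 fold change 2.01, adjusted p = 5.3e-07). Hfe, a class I-like regulator of iron uptake, was at 7.65, 7.65 and 7.20 FPKM in cKO spermatocytes, against 1.62, 1.79 and 1.81 FPKM in control spermatocytes (log2 fold change 1.63, adjusted p = 5.7e-07). Neither showed any overlap between groups. Cd1d1, which presents lipids, rose with a log2 fold change of 1.13, and H2-Q4 with 1.07. H2-Q2 was not called, with a log2 fold change of -0.20. The summed level of the family was 49.58 to 53.84 FPKM in cKO and 17.61 to 18.57 FPKM in control spermatocytes.

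In GC2 cells 20 of the 24 names stood on 18 rows and 7 rows were tested, of which 6 fell and none rose. Over all rows tested there, 13.9% fell and 10.7% rose. The row of H2-T23 was tested through the control libraries alone. H2-T22, whose product is recognised by gamma delta T cells, was at 5.83, 5.72 and 6.04 FPKM in KD cells, against 11.49, 10.77 and 10.62 FPKM in control cells (log2 fold change -0.80, adjusted p = 0.00068). The row shared by H2-Q1, H2-Q4 and H2-Q6 was at 2.22, 1.85 and 2.28 FPKM in KD cells, against 4.93, 6.12 and 5.57 FPKM in control cells (log2 fold change -1.07, adjusted p = 0.0019). Both fell without overlap. Cd1d1 was the exception: its log2 fold change was 0.34, with an adjusted p of 0.061, and with quantile normalization or median centring 1 gene of the family rose and 5 fell. H2-Q10 and Hfe were under 1 FPKM in all 6 GC2 libraries.

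**Figure D4:**
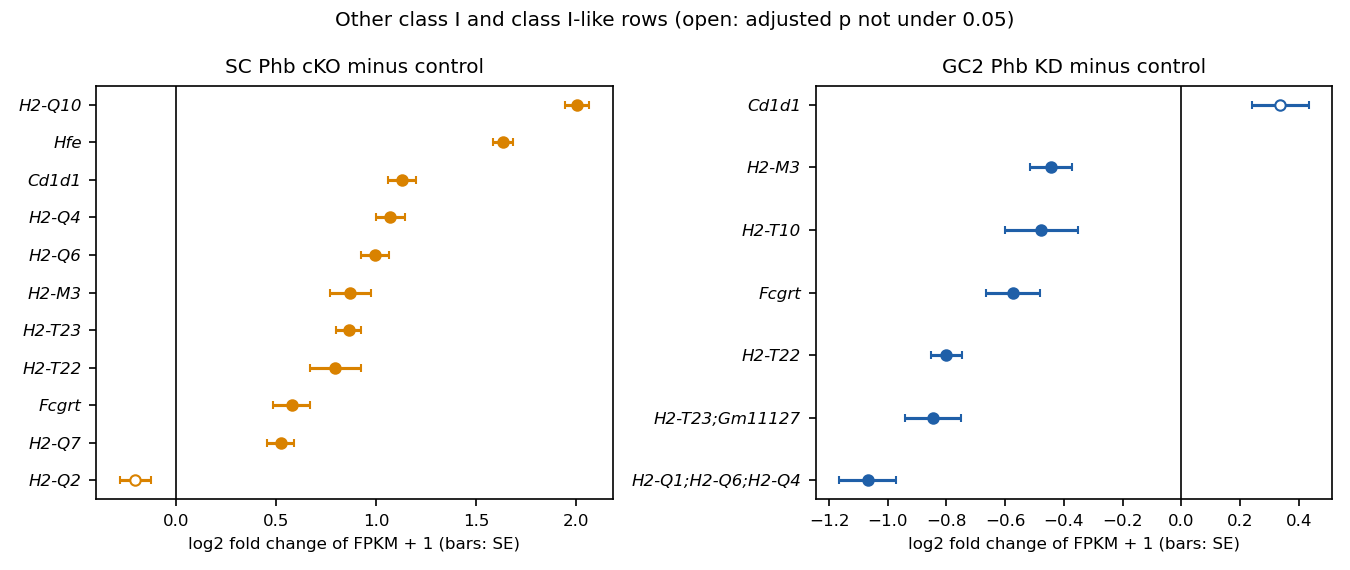
log2 fold change of FPKM + 1 for the other class I family genes tested (horizontal axes; bars are SE; left, Phb cKO minus control spermatocytes; right, Phb KD minus control GC2 cells; open symbols, adjusted p not under 0.05). H2-Q10 at 2.01 and Hfe at 1.63 lead in spermatocytes, where H2-Q2 at -0.20 is the only value under 0, and in GC2 cells Cd1d1 at 0.34 is the only value above 0.

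Of 5 trimming and loading partners, 3 rose in cKO spermatocytes (Erap1, Calr and Canx), and in KD cells 2 fell (Erap1 and Canx) and 1 rose (Calr). Over all rows tested, 40.9% rose and 38.5% fell in spermatocytes, and 13.9% fell and 10.7% rose in GC2 cells. Erap1, the aminopeptidase that trims peptides to fit the groove, was at 9.10, 9.48 and 8.78 FPKM in cKO spermatocytes, against 4.78, 5.15 and 4.8 FPKM in control spermatocytes (log2 fold change 0.78). In GC2 cells it was at 4.45, 4.87 and 4.71 FPKM in KD cells, against 11.52, 10.05 and 10.17 FPKM in control cells (log2 fold change -1.03, adjusted p = 0.00078). Erap1 thus rose in the cKO and fell in the KD. Calr, the chaperone calreticulin, rose in both: its log2 fold change was 0.46 in spermatocytes and 0.27 in GC2 cells. With median centring or quantile normalization all 5 partners rose in spermatocytes, and without control replicate 3 the number that rose in GC2 cells was 2.

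Among 8 genes of the standard proteasome, its activators and its assembly, 3 rose and 4 fell in cKO spermatocytes, and 4 fell and none rose in KD cells. Over all rows tested, 40.9% rose and 38.5% fell in spermatocytes, and 13.9% fell and 10.7% rose in GC2 cells. In GC2 cells 2 fell when KD replicate 2 or 3 or control replicate 2 or 3 was left out, and in spermatocytes 2 fell when cKO replicate 2 or 3 or control replicate 1 or 3 was left out. Psme1 and Psme2, subunits of the interferon-inducible activator cap, were in opposite directions in the 2 kinds of sample. The Psme2 level was 31.92, 30.04 and 34.28 FPKM in cKO spermatocytes, against 18.47, 16.56 and 17.78 FPKM in control spermatocytes (log2 fold change 0.83), and 28.38, 27.13 and 25.47 FPKM in KD cells, against 57.78, 56.31 and 50.36 FPKM in control GC2 cells (log2 fold change -0.99). Psme1 had log2 fold changes of 0.80 and -0.88. Psme4, which caps a proteasome form of the testis, was at 14.69, 15.32 and 14.52 FPKM in cKO spermatocytes, against 51.78, 51.48 and 52.79 FPKM in control spermatocytes (log2 fold change -1.74). With median centring or quantile normalization 4 of these genes rose and 1 fell in spermatocytes.

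Of 18 regulators of class I promoters, 9 rose and 2 fell in cKO spermatocytes, where 16 were tested, and 7 fell and none rose in KD cells, where 17 were tested. Irf2, among the 9, was tested in spermatocytes through the cKO libraries alone, so it had to differ. Over all rows tested, 40.9% rose and 38.5% fell in spermatocytes, and 13.9% fell and 10.7% rose in GC2 cells. Irf1, an interferon regulatory factor, was at 16.76, 18.27 and 16.60 FPKM in cKO spermatocytes, against 5.15, 5.12 and 4.8 FPKM in control spermatocytes (adjusted p = 6.0e-07). In GC2 cells it was at 17.40, 16.66 and 15.89 FPKM in KD cells, against 15.59, 25.62 and 23.12 FPKM in control cells. There the groups overlapped and the adjusted p was 0.28. Irf7, which drives interferon genes, was at 0.83, 1.09 and 0.91 FPKM in KD cells, against 18.81, 21.59 and 23.80 FPKM in control GC2 cells (adjusted p = 5.8e-05). Stat2, a subunit of the factor that interferons activate, was at 3.5, 3.78 and 3.97 FPKM in KD cells, against 11.64, 11.53 and 11.37 FPKM in control GC2 cells. Both were lower in every KD library. Of the subunits of the RFX complex, which binds class I promoters, Rfx5 fell in cKO spermatocytes, at 3.02, 3.82 and 3.97 FPKM in the cKO, against 7.19, 5.73 and 5.21 FPKM in control (log2 fold change -0.61, adjusted p = 0.0054), opposite to the called class I genes. Rfxap and Rfxank were called in neither kind of sample, and Rfx5 was not called in GC2 cells.

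Of 11 interferon ligands, receptors and kinases 8 were tested in each kind of sample. Shares over all rows tested were 40.9% higher and 38.5% lower in spermatocytes, and 13.9% lower and 10.7% higher in GC2 cells. In cKO spermatocytes 6 rose and 1 fell, and Jak1, a kinase of interferon receptors, was at 50.60, 49.48 and 51.32 FPKM in the cKO, against 19.86, 20.19 and 20.10 FPKM in control. In KD cells 3 fell and 1 rose, and none rose when any 1 KD library or control replicate 1 or 2 was left out. Without any 1 control library 7 were tested and 2 fell, as a row that reached 1 FPKM in control libraries alone could not pass. The ligand genes Ifnb1 and Ifng were under 1 FPKM in all 12 libraries.

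Immune cells also carry class I, class II and the immunoproteasome, and their markers were counted beside these results. In spermatocytes 8 of 14 immune markers were tested, 7 rose and none fell, with sums of 36.26 to 40.18 FPKM in cKO and 18.69 to 26.24 FPKM in control. Beside the counts of this paragraph, 40.9% of all rows tested in spermatocytes rose and 38.5% fell. Cd68, a macrophage marker, was at 11.54, 10.14 and 12.18 FPKM in cKO spermatocytes, against 4.99, 4.74 and 5.66 FPKM in control spermatocytes, while Ptprc, the marker of all leukocytes, was at 0.19, 0.16 and 0.16 FPKM, against 0.16 FPKM in each control library. Ptprc, Adgre1, Cd163, Cd3e and Cd79a were under 1 FPKM in all 6 libraries. Of 7 class II genes 4 rose and 1 fell in cKO spermatocytes, with sums of 10.65 to 12.10 FPKM in cKO and 8.06 to 8.88 FPKM in control. Leaving out cKO replicate 1, 2 or 3 left 2 class II genes that rose, of 3 tested, and leaving out cKO replicate 2 or 3 left 4 immune markers that rose, of 7 tested. In those fits rows that reached 1 FPKM in cKO libraries alone could not pass the filter. Leaving out any 1 control library left 4 class II genes tested, of which 4 rose and none fell. There a row that reached 1 FPKM in control libraries alone could not pass. Peritubular and endothelial markers rose in 6 of 7 tested and erythrocyte markers in 4 of 4. The part of any of these cells in the spermatocyte results was not tested.

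In GC2 cells 13 of the 14 immune markers had a row and 12 were under 1 FPKM in all 6 libraries. The exception was Cd68, whose level was 3.58, 5.19 and 4.94 FPKM in KD cells, against 3.52, 3.59 and 3.61 FPKM in control cells, with overlap. The invariant chain gene Cd74 of class II was at 0.04, 0.04 and 0.25 FPKM in KD cells, against 1.51, 1.32 and 1.28 FPKM in control GC2 cells. Cd74 and H2-DMa were the class II genes tested, both through the control libraries alone, and both fell. Without KD replicate 1 or 3, with quantile normalization, or with a term for the replicate number (the replicate block), 1 of them fell.

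Genes outside these lists and called in both contrasts were compared with the mean of the 6 class I genes tested in both tables. Over the 12 libraries, those with the most similar pattern were Angptl4, Fam120aos, Sesn2, Slc39a1 and Ogfr. Pearson's r with that mean, after centring within each kind of sample, was 0.995 for Angptl4 (a row shared with 4931413I07Rik in GC2 cells), 0.993 for Fam120aos and for Sesn2, and 0.992 for Slc39a1 and for Ogfr. The class I genes themselves had r of 0.88 (H2-K1) to 0.987 (Tap2), each with a mean that includes the gene. These values describe 12 libraries in 4 groups, share the group differences of each gene, and carry no test.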

How the data were processed

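RNA was sequenced from 12 libraries, made with a directional kit per the labels' protocols. Per the same protocols the seminiferous tubules were digested with enzymes and germ cells were stained with a Hoechst dye to isolate spermatocytes. The authors deposited FPKM values, 1 for each library and row of genes. The submitters' processing notes name HISAT2 version 2.1.0, DESeq, and GRCm38 and mm10 as builds, with no role for any. The sources used here do not give the quantifier, the annotation release, the read depth or the use of strand. Some rows name several genes, and where a name stood on several rows the row with the highest mean was used. FPKM does not correct for composition.

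From these values log2(FPKM + 1) was tested with limma 3.58.1 (R 4.3.3) with a variance trend, two-sided, on the named rows with at least 1 FPKM in at least 3 of 6 libraries, and calls were made at a Benjamini-Hochberg adjusted p under 0.05 over all rows tested. All adjusted p-values come from limma. Fold changes understate the change of low genes. The difference between both contrasts was tested in a joint fit of 12 libraries. The procedure was tested on simulated data. Figures and summaries used Python 3.11.15, pandas 2.3.3 and matplotlib 3.10.9.

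The 10 genes and the lists were chosen with earlier results of these data known. Named beside them are Phb, up to 6 called genes of each list by adjusted p, and list genes near 0. Added to these are the 5 genes most alike in pattern among those called in both contrasts. The genes Calr, Canx, H2-Q2, Cd1d1 in GC2 cells, Irf1 in GC2 cells, Psme4, Rfx5, Rfxap, Rfxank and Ptprc were also named after their values were seen where the rule did not take them. No batch is given in the labels. Positions are from GENCODE M21 (GRCm38).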

Additional observations from a re-analysis of the deposited data

Results flagged for a closer look

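Each of the 6 class I genes tested in both kinds of sample had a fold change that differed between them, in a test of the difference itself by limma. The difference in log2 fold change, spermatocytes minus GC2 cells, was 3.99 for B2m, 2.56 for H2-D1, 2.25 for Tap2, 1.47 for Psmb10, 1.46 for H2-K1 and 1.09 for Tapbp. For Tapbp the spermatocyte row also holds Daxx and the GC2 row Rgl2, and for Psmb10 the GC2 row also holds Ctrl, so these differences are not of 1 gene alone. Tap2 passed the filter in spermatocytes through the cKO libraries alone. Marker genes of Sertoli, Leydig and immune cells rose in the cKO libraries, and their part was not tested.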

How the results depend on the processing

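All 115 differences between contrasts recomputed under the alternatives kept their direction and call, as did 188 of the fold changes of single class I genes. The exception was H2-K1 in GC2 cells, called without control replicate 3 (log2 fold change -1.25, adjusted p = 0.0056) and ranging from -1.25 to -0.75 as each library was left out, with adjusted p from 0.0056 to 0.181. With a minimum mean of 5 FPKM fewer genes were tested, and 1640 rows were called in GC2 cells and 7253 in spermatocytes (2649 and 12672 in the report), with 4 class I genes called in GC2 cells. Leaving out 1 library gave 1648 to 2168 called rows in GC2 cells and 9811 to 11747 in spermatocytes, with 7 to 8 and 4 to 5 class I genes called, the lowest spermatocyte count where Tap2 was left with too few libraries over 1 FPKM. With no filter 8 class I genes were called in GC2 cells and 7 in spermatocytes. The share of calls that were higher was 53.6% with quantile normalization against 43.5% without in GC2 cells, and 62.0% against 51.6% in spermatocytes, where the median over all tested rows moved to 0.281 (log2). Psmb10 in spermatocytes stood at 0.42 on that scale. The causes were not tested. The labels do not say whether replicate numbers pair the libraries. Same-numbered deviations correlated at 0.124, 0.078 and 0.0607 in GC2 cells, beside -0.074 to -0.000867 for unlike numbers. Each was highest for its own number, a hint of pairing from the data alone. In spermatocytes they correlated at -0.0539 to 0.00744, beside -0.0422 to 0.0362 for unlike numbers. With the replicate block 1985 rows were called in GC2 cells and 12482 in spermatocytes, with 7 and 5 class I genes. Unknown depth limits Psmb9, Nlrc5 and, in spermatocytes, Tap1 and Psmb8.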
